A study of Cucurbita moschata with 6 samples.

Results

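Aquaporins are the water channels of plant membranes, and 46 of the 32205 genes in the deposited table carry the word aquaporin in their product name. They were chosen by that word alone, and the name also sorts them into subfamilies: 8 PIP1, 14 PIP2, 9 TIP, 11 NIP and 3 SIP genes, with 1 gene called only an aquaporin-like protein. The levels come from poly(A) RNA of pumpkin (Cucurbita moschata) hypocotyls, the stem below the cotyledons, of seedlings picked for the study of far-red light and hypocotyl elongation after their cotyledons had opened. The study had 2 groups of 3 libraries, whose titles read SCK and SR without spelling out either name. The series has 1 treated and 1 control group, and SCK is read here as the control because CK often stands for one. All 6 samples carry the same treatment entry, far-red light for 120 s, and all seedlings grew under artificial light, with days of 14 h at 28 °C and nights of 10 h at 18 °C. Whether the replicates are separate plants is not labelled, and the p-values then describe only the spread among these libraries, which may be technical.

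Aquaporins let water, and in some cases small uncharged solutes, cross a membrane without energy input. PIPs (plasma membrane intrinsic proteins) sit in the cell's outer membrane, and in several species PIP1 proteins reach it only together with PIP2 partners. TIPs (tonoplast intrinsic proteins) lie in the membrane of the vacuole, the compartment whose water uptake drives the growth of an elongating hypocotyl cell. NIPs (nodulin-26-like intrinsic proteins) are known for boric acid, silicic acid and glycerol more than for water, and SIPs (small basic intrinsic proteins) were placed in the endoplasmic reticulum in Arabidopsis.

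Deposited counts summed to between 52300725 and 72356397 per library, and 1 read pair may be worth about 4 of them. Levels below are deposited FPKM, which divide by transcript length and by library size, given as mean ± SD (n = 3). Fold changes are log2 values of SR over SCK with the SE of edgeR's quasi-likelihood fit, and a gene is called a rise or a fall at a Benjamini-Hochberg adjusted p under 0.05 over all 23509 tested genes. In bulk RNA, fewer cells of a type and less RNA per cell cannot be told apart. SCK replicate 3 stood between the other SCK libraries in 31 of the 36 tested aquaporin genes, against 57.7% of all tested genes, and without it edgeR called 0 genes in the whole table, although 5558 had an unadjusted p under 0.05 and DESeq2 gave 1791 rises and 1846 falls. Markers of green tissue (chlorophyll a-b binding proteins and the small subunit of Rubisco, 29 genes, 1 of them at 0 in all libraries) summed to 9754 to 16183 FPKM in SCK and 7938 to 9835 in SR, and 10 of the 26 tested fell with edgeR (0 without SCK replicate 3 or SR replicate 3, where DESeq2 called 12 and 13). Phloem markers (25 genes, none at 0) summed to 3489 to 3754 FPKM in SCK and 3299 to 5688 in SR, and 6 of 23 rose with edgeR (0 without SCK replicate 2 or SCK replicate 3, where DESeq2 called 7 each time). Over all tested genes edgeR called 7.20% as rises and 7.16% as falls. DESeq2 called 1976 of the 23509 as falls without SR replicate 3 and 2657 as rises without SCK replicate 2. The part of green tissue or phloem in the aquaporin values was not tested. Xylem markers (8 genes, 1 at 0) summed to 24.8 to 27.6 and 32.9 to 40.5 FPKM, root markers (3 genes) to 38.5 to 45.5 and 46.3 to 47.5, and seed storage markers (22 genes, 6 at 0) to 26.04 to 34.3 and 30.8 to 38.8, in SCK and SR, with 1 call among them, a rise of a seed storage gene. No marker used here defines a hypocotyl.

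Of the 46 aquaporin genes, 36 reached an FPKM of 1 in 3 or more libraries and were tested. Among these, 3 rose and 6 fell, together 25.0% of the 36, where 14.4% of all tested genes were called, 7.20% as rises and 7.16% as falls. NIP1-2, counted among the falls, reached an FPKM of 1 in SCK libraries only. The 2 most abundant plasma membrane channels, a PIP1-4 and a PIP2-7-like gene, fell in SR to mean levels of 257 ± 76.6 and 355 ± 61.4 FPKM from 875 ± 89.1 and 800 ± 123, while edgeR called none of the vacuolar channels. The SR and SCK values did not overlap in 15 of the 36, or 41.7%, which is near the 40.6% of all tested genes. The median log2 change of the 36 was -0.38, against 0.01 for all tested genes. Without TMM factors, edgeR's correction for library composition, 4 aquaporin genes rose and 4 fell, where 11.1% and 4.91% of all tested genes did and 16.0% were called in all, and the median of all tested genes moved from 0.01 to 0.14. limma on log2(FPKM + 1) also called 4 rises and 4 falls, where 10.1% and 4.63% of all tested genes rose and fell, 14.8% together. DESeq2 called 6 rises and 8 falls, or 38.9% of the 36, where it called 25.6% of all tested genes, 13.0% as rises and 12.7% as falls. Of the 15 genes without overlap, 8 were higher and 7 lower in SR, where 27.9% and 12.7% of all tested genes were. By product name 24 of the 46 share a name with another aquaporin gene, and 8 overlap another gene on the genome, so that shared reads may blur their values.

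**Figure D1:**
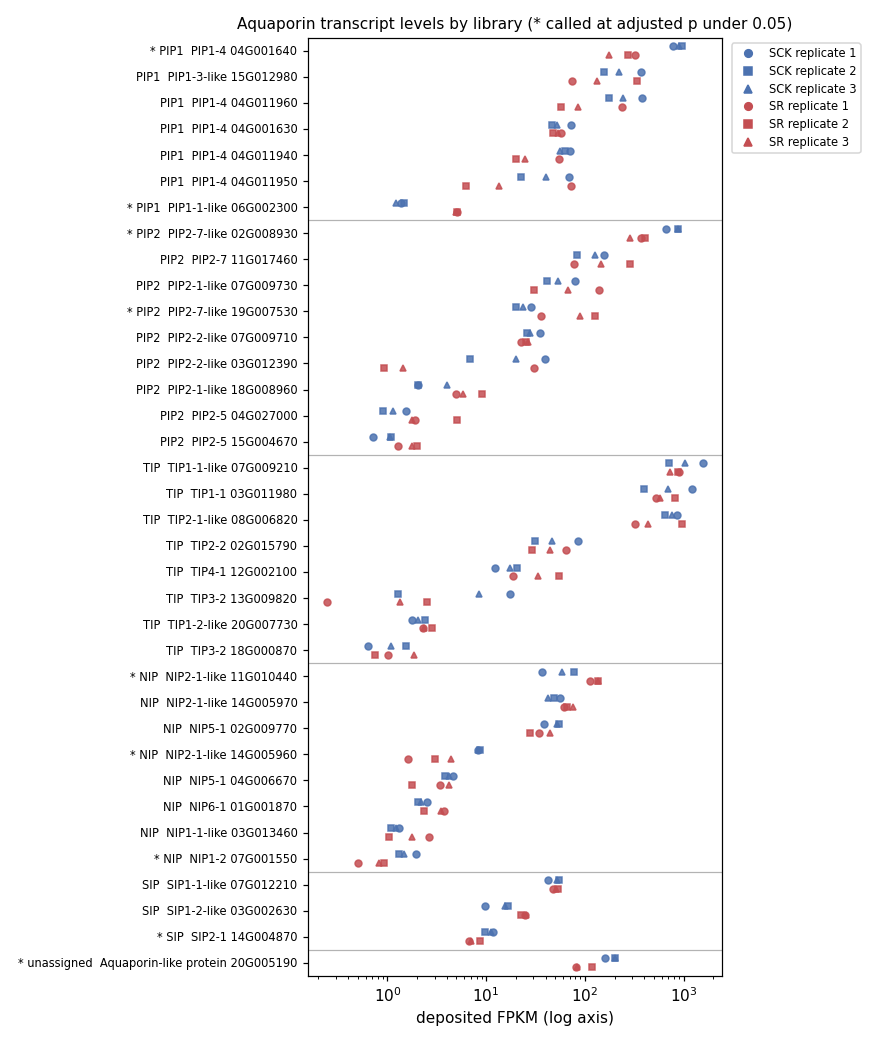
Deposited FPKM of the 36 tested aquaporin genes on a log axis, by subfamily and then by mean level, with 1 symbol per library (blue SCK, red SR) and gene identifiers without their first letters. Starred genes were called, and in all 9 of them the red and blue symbols do not overlap.

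Summed over all 46 genes, aquaporin transcripts stood at 6893, 4772 and 5644 FPKM in SCK replicates 1, 2 and 3 and at 3727, 4835 and 3385 FPKM in SR replicates 1, 2 and 3. The means were 5770 ± 1066 and 3982 ± 758 FPKM, and the groups overlapped, because SR replicate 2 lay just above SCK replicate 2. The family took 0.843% ± 0.148 of all FPKM in SCK and 0.589% ± 0.115 in SR. A few genes carried most of it: the 5 most abundant in each library held 73.9% to 75.2% of the sum in SCK and 65.1% to 70.3% in SR.

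The PIP1 share of the total was lower in every SR library. PIP1 transcripts made up 25.3%, 29.8% and 26.6% of summed aquaporin FPKM in the SCK libraries and 22.2%, 15.5% and 14.5% in the SR libraries, so the groups did not overlap. The mean PIP2 share was 18.9% ± 3.91 in SCK and 18.5% ± 0.133 in SR, with overlap. TIP genes were the largest class throughout, with 54.7%, 38.0% and 45.4% in SCK and 49.2%, 56.8% and 53.9% in SR, and these ranges overlapped. NIP genes held 2.19%, 4.15% and 3.01% in SCK and 5.92%, 4.93% and 8.03% in SR, higher in every SR library. SIP genes held 1.35% ± 0.394 in SCK and 2.12% ± 0.349 in SR without overlap, and the unassigned gene 3.39% ± 0.989 and 2.37% ± 0.169 with overlap. A share also depends on the level of the other classes: SIP transcripts themselves were at 74.8 ± 9.46 and 82.7 ± 2.93 FPKM with overlap, while NIP transcripts were at 173 ± 23.8 and 244 ± 25.9 FPKM with every SR library higher. The ratio of PIP to TIP transcripts, plasma membrane against vacuole, was 0.728, 1.36 and 1.03 in SCK and 0.824, 0.601 and 0.614 in SR, so that SCK replicate 1 lay among the SR libraries.

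**Figure D2:**
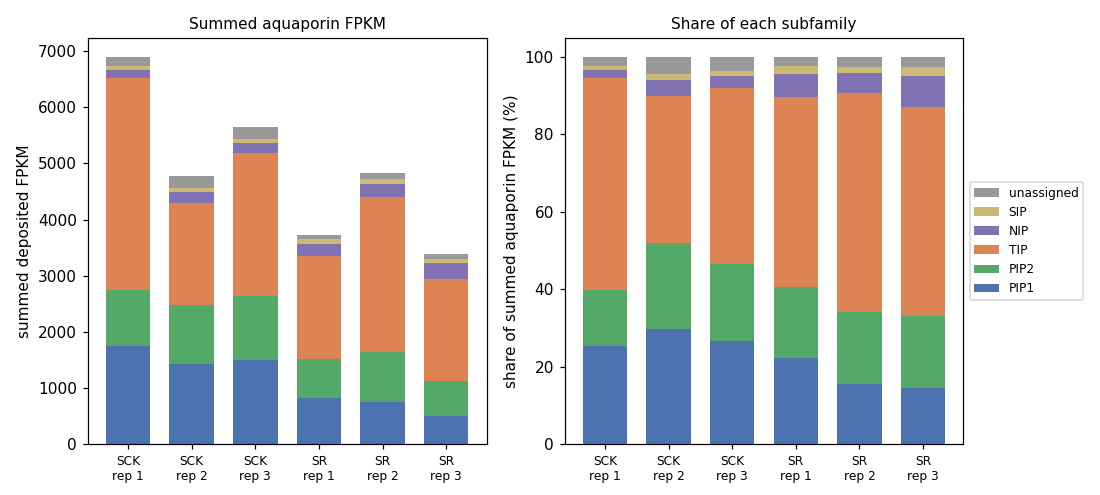
Summed deposited FPKM of each aquaporin subfamily (left) and its percentage of the family total (right), 1 stacked bar per library. The PIP1 segment is 25.3% to 29.8% of the SCK bars and 14.5% to 22.2% of the SR bars.

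The lack of overlap in the PIP1, PIP2 and NIP sums rested on their most abundant gene. PIP1 FPKM summed to 1745, 1421 and 1501 in SCK and 827, 749 and 492 in SR, but without the leading PIP1-4 gene the sums were 964, 464 and 614 against 503, 475 and 318, which overlap. The mean of the PIP1 rest was still lower in SR, at 432 ± 99.7 against 680 ± 257 FPKM. Of the 7 tested PIP1 genes, the leading one included, 6 had a negative log2 change. PIP2 FPKM summed to 1001, 1054 and 1130 in SCK and 684, 899 and 629 in SR. Without the leading PIP2-7-like gene they were 344, 182 and 261 against 316, 490 and 341, so the mean of the rest was higher in SR and the groups overlapped. NIP sums without the leading NIP2-1-like gene were 115 ± 4.66 and 116 ± 16.9 FPKM. SIP sums without SIP1-1-like were higher in each SR library, at 31.5, 31.3 and 32.5 against 21.5, 26.5 and 26.6 FPKM. These leave-outs were added after the data were seen.

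Among the PIP1 genes, 1 of 7 tested fell, 1 rose and 5 were not called. The leading one, probable aquaporin PIP1-4 (CmoCh04G001640, chromosome 4, 843579 to 845608 in the authors' coordinates), stood at 781, 957 and 887 FPKM in SCK and 324, 275 and 174 FPKM in SR. Every SR library was far below every SCK library. It fell by 1.90 ± 0.26 on the log2 scale (edgeR adjusted p = 0.0127), and its place among all genes by mean FPKM went from 59 to 249. The gene just 740 bp before it, also named PIP1-4 (CmoCh04G001630), was at 72.8, 46.4 and 52.8 FPKM in SCK and 57.9, 47.5 and 53.3 in SR, with a log2 change of -0.26 ± 0.21 (adjusted p = 0.434). The ratio of the leading gene to this neighbour was 10.7, 20.6 and 16.8 in SCK and 5.59, 5.78 and 3.25 in SR, without overlap. The leading gene held 44.7%, 67.4% and 59.1% of PIP1 transcripts in SCK and 39.1%, 36.7% and 35.3% in SR.

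Further along chromosome 4, 3 more genes named PIP1-4 follow each other between 6106583 and 6113521. The most abundant of them (CmoCh04G011960) was at 381, 175 and 242 FPKM in SCK and 238, 57.6 and 85.7 in SR, with a log2 change of -1.19 ± 0.58 (adjusted p = 0.201). Here SR replicate 1 lay within the SCK range and the other SR libraries below it. Without SR replicate 1 edgeR called CmoCh04G011960 a fall, with a log2 change of -2.07 (adjusted p = 0.0290), as did DESeq2. Neither tool called it when any other library was left out. The middle gene (CmoCh04G011950) varied most, at 69.5, 22.3 and 40.5 FPKM in SCK and 72.5, 6.19 and 13.6 in SR, an 11.7-fold range among SR libraries (adjusted p = 0.661). The first (CmoCh04G011940) was lower in every SR library, at 71.3, 62.9 and 56.4 against 54.4, 20.1 and 25.0 FPKM, but did not pass (log2 change -1.06 ± 0.39, adjusted p = 0.109). DESeq2 called this gene a fall (adjusted p = 0.0268). Genes so close in name and place may share reads, and the treatment of such reads is not stated.

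PIP1-3-like (CmoCh15G012980) was at 367, 155 and 221 FPKM in SCK and 74.9, 338 and 133 in SR, with SR replicate 2 inside the SCK range (log2 change -0.62 ± 0.56, adjusted p = 0.477). PIP1-1-like (CmoCh06G002300, chromosome 6, 1232789 to 1234265) was the only PIP1 gene to rise, from 1.36, 1.46 and 1.22 FPKM in SCK to 5.05, 5.10 and 4.94 FPKM in SR. Its replicates lay closer together than those of any other called aquaporin gene in SR, and its log2 change was 1.76 ± 0.20 (adjusted p = 0.0109).

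Among 9 tested PIP2 genes, 1 fell, 1 rose and 7 were not called. PIP2 proteins are in general the more active water channels of the plasma membrane. PIP2-7-like on chromosome 2 (CmoCh02G008930, 5507658 to 5509309) was the leading one, at 657, 872 and 869 FPKM in SCK and 368, 409 and 289 in SR. The groups were well apart, and it fell by 1.30 ± 0.19 (adjusted p = 0.0137).

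Its namesake on chromosome 19 (CmoCh19G007530, 7683024 to 7684429) went the other way, from 28.5, 19.9 and 23.8 FPKM in SCK to 36.1, 128 and 89.1 in SR. All SR values were higher, though SR replicate 1 only slightly, and it rose by 1.65 ± 0.41 (adjusted p = 0.0412). edgeR lost that call without SCK replicate 1, 2 or 3 and without SR replicate 2 or 3 (adjusted p up to 0.143), and limma did not make it, while DESeq2 kept it without each library. A further gene, named PIP2-7 without the suffix (CmoCh11G017460), was at 155, 82.7 and 128 FPKM in SCK and 76.8, 286 and 144 in SR, with overlap (log2 change 0.30 ± 0.45, adjusted p = 0.680).

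The chromosome 2 gene was 23.1, 43.8 and 36.6 times as abundant as the chromosome 19 gene in SCK, and 10.2, 3.21 and 3.24 times in SR. It held 78.1% to 89.5% of PIP2-7-named FPKM in SCK and 49.7% to 76.5% in SR. The trio summed to 946 ± 93.3 FPKM in SCK and 609 ± 187 in SR, with every SR library lower.

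**Figure D3:**
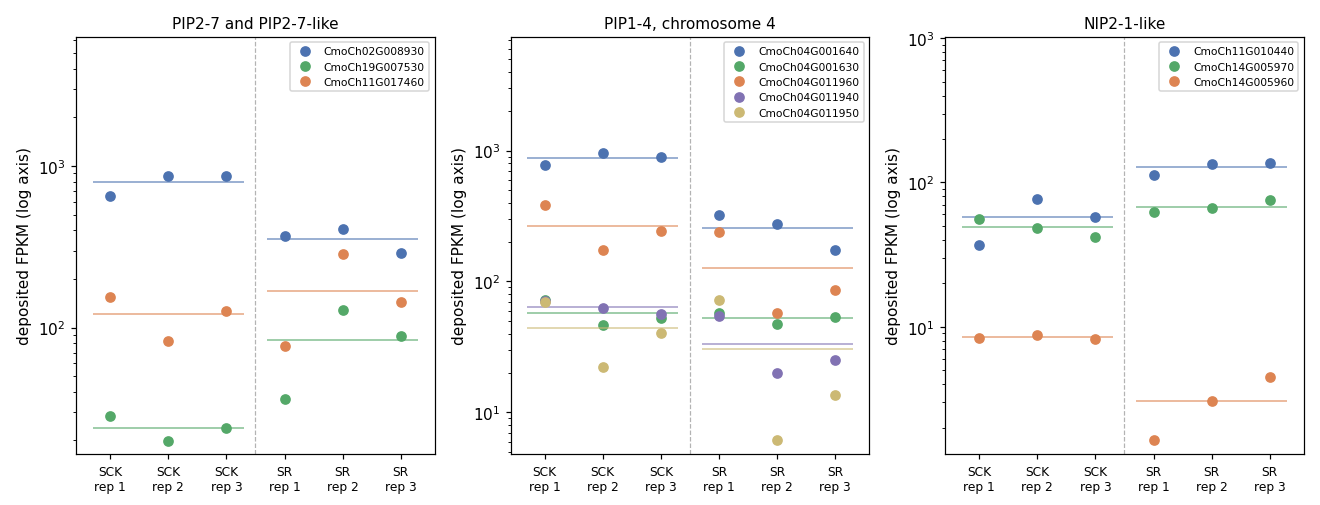
Deposited FPKM (log axis) of genes that share a product name, by library, with a bar at each group mean: PIP2-7 and PIP2-7-like (left), PIP1-4 genes of chromosome 4 (middle) and NIP2-1-like (right). On the left the top gene falls from 657 to 872 FPKM in SCK to 289 to 409 in SR while the bottom gene rises from 19.9 to 28.5 to 36.1 to 128.

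The other PIP2 genes were less abundant. PIP2-1-like on chromosome 7 (CmoCh07G009730) ranged from 41.1 to 79.5 FPKM in SCK and from 30.6 to 138 in SR, with SR replicate 1 highest (log2 change 0.31 ± 0.55, adjusted p = 0.728). PIP2-2-like on chromosome 3 (CmoCh03G012390) had the widest spread of the tested aquaporin genes in SR, at 30.5, 0.927 and 1.45 FPKM against 39.6, 6.86 and 20.2 in SCK (adjusted p = 0.587). PIP2-1-like on chromosome 18 (CmoCh18G008960) and the PIP2-5 genes CmoCh04G027000 and CmoCh15G004670 were higher in every SR library but below 10 FPKM everywhere, and none passed with edgeR (adjusted p = 0.0686, 0.150 and 0.253). DESeq2 called the chromosome 18 gene a rise, as did limma (adjusted p = 0.0127 and 0.0491). PIP2-2-like on chromosome 7 (CmoCh07G009710) lay between 22.7 and 34.7 FPKM in all 6 libraries (log2 change -0.39 ± 0.15, adjusted p = 0.122). CmoCh15G004670 overlaps an aquaporin gene on the other strand, and CmoCh07G009730 and CmoCh04G027000 each overlap another gene. The kit marks strand but whether the counting used it is not stated, so reads of such pairs may not be told apart.

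With all libraries, edgeR called no TIP gene among 8 tested, with 2 at an unadjusted p under 0.05. The SR and SCK values overlapped in all 8. DESeq2 called 1, a rise of TIP4-1, and limma called 0. As a class these were the most abundant aquaporins of the hypocotyl, holding 38.0% to 56.8% of the total. TIP1-1-like (CmoCh07G009210), of the class that marks the large vacuole in Arabidopsis, led the family at 1581, 717 and 1034 FPKM in SCK and 902, 874 and 729 in SR. The SR values all lay inside the SCK range, and the log2 change of -0.56 ± 0.31 did not pass (adjusted p = 0.257). TIP1-1 (CmoCh03G011980) ran in the same order in SCK, at 1218, 397 and 695 FPKM, with 521, 809 and 580 in SR (log2 change -0.44 ± 0.41, adjusted p = 0.498). Without SCK replicate 1 its log2 change was 0.10. Green tissue markers were likewise highest in SCK replicate 1, at 16183 FPKM, and lowest among SCK in replicate 2, at 9754, and their part in the TIP1-1 spread was not tested.

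TIP2-1-like (CmoCh08G006820), of a class that in Arabidopsis carries ammonia as well as water, was steady in SCK at 856, 643 and 758 FPKM and uneven in SR at 325, 969 and 432 (log2 change -0.55 ± 0.38, adjusted p = 0.357). SR replicate 2 was above every SCK library and the other SR libraries below all of them. Without SR replicate 2 it fell by 1.12 on the log2 scale (adjusted p = 0.0400). TIP4-1 (CmoCh12G002100) was at 12.4, 20.7 and 17.4 FPKM in SCK and 18.6, 55.1 and 33.3 in SR (log2 change 0.94 ± 0.36, adjusted p = 0.121). Without SR replicate 1, its lowest SR library, edgeR called TIP4-1 a rise. TIP3-2 on chromosome 13 (CmoCh13G009820), of a class known from seed storage vacuoles, was at 17.5, 1.29 and 8.52 FPKM in SCK and 0.244, 2.52 and 1.34 in SR. Its log2 change of -2.92 ± 1.05 was the largest in size among the tested aquaporin genes but did not pass (adjusted p = 0.104), and SCK replicate 2 lay within the SR range. The other TIP genes, TIP2-2, TIP1-2-like and TIP3-2 of chromosome 18, had log2 changes of -0.36, 0.11 and 0.04, and TIP2-2 (CmoCh02G015790) was the most abundant of them at 31.0 to 84.8 FPKM in SCK and 29.4 to 64.4 in SR.

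**Figure D4:**
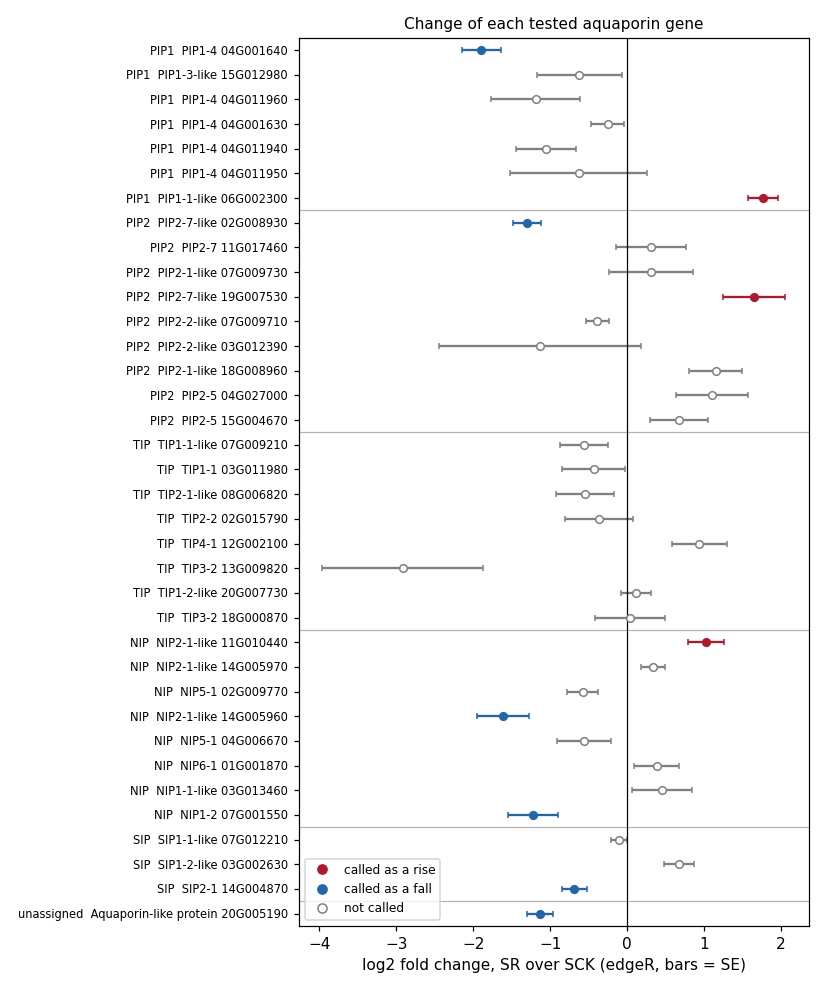
Log2 fold change of SR over SCK for each tested aquaporin gene, by subfamily, with SE bars from edgeR. The 3 rises (red) range from 1.02 to 1.76 and the 6 falls (blue) from -0.69 to -1.90, and all 8 TIP genes are open grey points.

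Among 8 tested NIP genes, 1 rose, 2 fell and 5 were not called, and a rise and a fall share the name NIP2-1-like. NIP2-1 belongs to the class of the rice silicic acid channel. NIP2-1-like on chromosome 11 (CmoCh11G010440, 5789335 to 5793432) was at 37.1, 77.4 and 57.9 FPKM in SCK and 112, 135 and 137 in SR. All SR values lay above all SCK values, and it rose by 1.02 ± 0.24 (adjusted p = 0.0345), a call that edgeR lost without any of the SR libraries or without SCK replicate 3 (adjusted p up to 0.128) and DESeq2 kept in each case. A second gene of the name on that chromosome (CmoCh11G010450), 19264 bp further on, had a count of 0 in every library.

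On chromosome 14 a further pair of NIP2-1-like genes lies 6090 bp apart. The first (CmoCh14G005960, 3016805 to 3019552) was very even in SCK at 8.35, 8.71 and 8.25 FPKM and lower in SR at 1.63, 3.06 and 4.45, and it fell by 1.61 ± 0.34 (adjusted p = 0.0270, a call that edgeR lost without any of the SCK libraries or SR replicate 2 and DESeq2 kept in each case). The second (CmoCh14G005970) was at 55.9, 48.3 and 41.9 FPKM in SCK and 62.0, 66.3 and 75.0 in SR, higher in each SR library without passing (log2 change 0.34 ± 0.15, adjusted p = 0.168). Their ratio, second to first, was 6.70, 5.54 and 5.08 in SCK and 38.0, 21.7 and 16.9 in SR, with no overlap. Together the NIP2-1-like genes summed to 115 ± 17.4 FPKM in SCK and 199 ± 20.6 in SR, higher in every SR library.

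NIP5-1 (CmoCh02G009770), the class of the boric acid uptake channel of Arabidopsis, was at 39.0, 55.0 and 52.4 FPKM in SCK and 34.5, 28.0 and 44.5 in SR. The groups overlapped and it did not pass (log2 change -0.58 ± 0.20, adjusted p = 0.0982), although DESeq2 called it a fall (adjusted p = 0.0395). NIP1-2 (CmoCh07G001550, chromosome 7, 845702 to 849621) fell by 1.23 ± 0.32 from a low level, 1.93, 1.31 and 1.49 FPKM in SCK to 0.499, 0.918 and 0.820 in SR (adjusted p = 0.0489). The gene reached an FPKM of 1 in SCK libraries only, so it entered the test through the group where it is higher. With no filter on low values, or with a filter on counts, edgeR did not call it (adjusted p = 0.0560 and 0.0537). That call sits at the threshold: edgeR also lost it without any single library (adjusted p from 0.0714 to 0.134) and without TMM factors. limma did not make it, while DESeq2 kept it in each fit without 1 library (adjusted p from 0.0065 to 0.0471). The gene also overlaps one on the other strand. The remaining NIP genes stayed below 5 FPKM, namely a second NIP5-1, NIP6-1 and NIP1-1-like, with log2 changes of -0.56, 0.38 and 0.45.

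SIP genes gave 1 fall among 3. SIP2-1 (CmoCh14G004870, chromosome 14, 2417509 to 2420613) was at 11.7, 9.81 and 11.2 FPKM in SCK and 6.71, 8.66 and 7.08 in SR, without overlap, and fell by 0.69 ± 0.16 (adjusted p = 0.0346). It did not pass with edgeR without TMM factors, with limma, or in 5 of the 6 edgeR fits that leave out 1 library, while DESeq2 called it in all 6 of its own. SIP1-2-like (CmoCh03G002630) was higher in every SR library, at 24.8, 22.7 and 25.4 FPKM against 9.72, 16.7 and 15.4, but edgeR did not call it (log2 change 0.68 ± 0.19, adjusted p = 0.0605), while DESeq2, limma and edgeR without TMM factors did. SIP1-1-like (CmoCh07G012210), the most abundant of the class, was at 50.0 ± 6.59 and 50.9 ± 2.95 FPKM (log2 change -0.11 ± 0.11, adjusted p = 0.525, with a sign that turns under limma and without TMM factors).

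The gene named only aquaporin-like protein (CmoCh20G005190, chromosome 20, 2483693 to 2487193) was at 160.0, 204 and 202 FPKM in SCK and 80.9, 119 and 83.6 in SR. No values overlapped and it fell by 1.14 ± 0.17 (adjusted p = 0.0142, and not called by edgeR without SCK replicate 3 or SR replicate 3, though DESeq2 called it in both). Its name, taken from a protein of artichoke, gives no subfamily.

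The 10 untested genes stayed at or below 2.02 FPKM in every library. They were 5 PIP2, 3 NIP, 1 PIP1 and 1 TIP gene, of which 2 had no count at all, PIP2-1-like CmoCh03G012410 and the NIP2-1-like gene of chromosome 11 mentioned above. No count of changes is drawn from them.

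Aquaporin genes were uneven among replicates. Within SCK, 10 of the 36 tested genes spanned at least 2-fold, or 27.8%, against 14.0% of all tested genes, and within SR it was 17, or 47.2%, against 16.2%. The median SD on log2(FPKM + 1) was 0.24 in SCK and 0.38 in SR for aquaporin genes, and 0.17 and 0.20 for all tested genes. SCK replicate 1 held the highest SCK value in 22 of the 36 genes, against 32.7% of all tested genes.

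In SR, 2 opposite patterns were seen, picked out after the values were known. The PIP1-4 trio of chromosome 4, PIP2-2-like of chromosome 3 and PIP2-1-like of chromosome 7 were highest in SR replicate 1 and lowest in replicate 2. The trio summed to 365 FPKM in SR replicate 1, 83.9 in replicate 2 and 124 in replicate 3. PIP1-3-like, PIP2-7, PIP2-7-like of chromosome 19, TIP2-1-like and TIP4-1 were highest in replicate 2 and lowest in replicate 1. The phloem markers were also highest in SR replicate 1, at 5688 FPKM against 3299 and 3975 in replicates 2 and 3, and their part in this was not tested. By contrast PIP1-1-like differed by only 1.03-fold across the SR libraries.

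**Figure D5:**
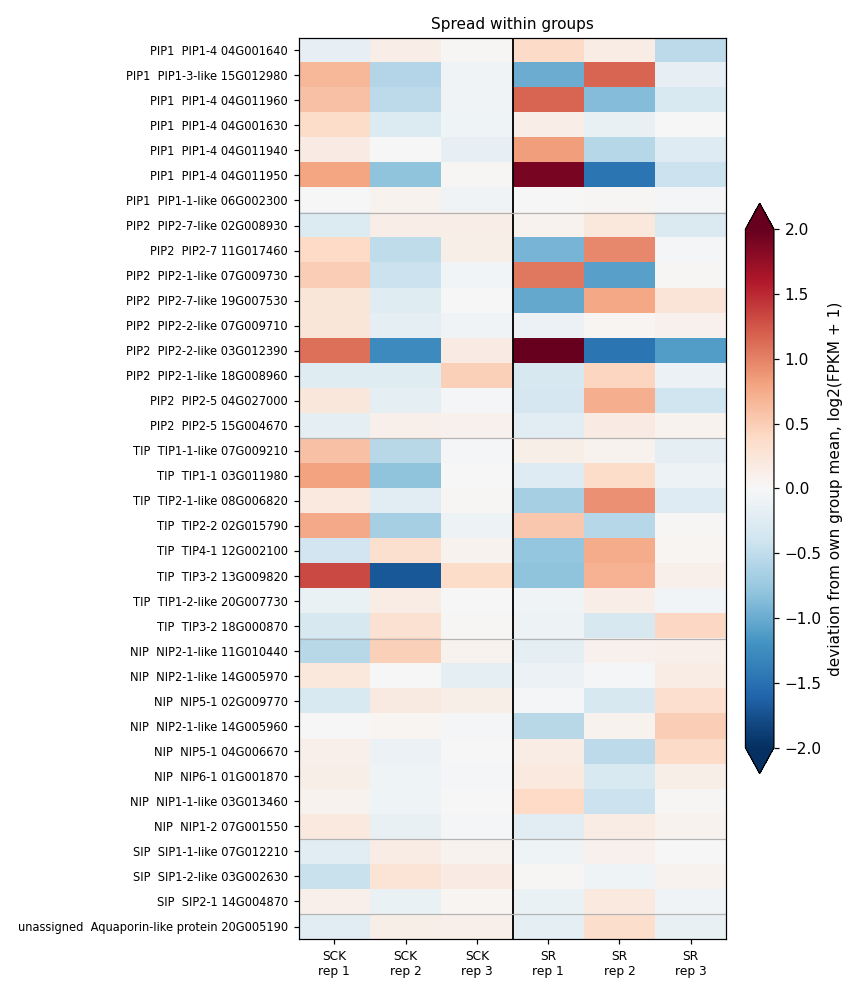
Deviation of each tested aquaporin gene from the mean of its own group on log2(FPKM + 1), by library (red above, blue below, colours saturate at 2). SCK replicate 3 is close to its group mean for most genes, and SR replicates 1 and 2 differ in opposite directions for many PIP and TIP genes.

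Genes whose products act on aquaporins were counted beside them. The list of trafficking and turnover partners holds SNARE proteins of the kinds that carry PIP2 proteins in Arabidopsis and maize, and RMA ubiquitin ligases, of which the pepper protein RMA1H1 keeps a PIP2 from the plasma membrane and leads to its breakdown when made in Arabidopsis. Of 20 tested partners, 4 fell and 1 rose, where 7.16% and 7.20% of all tested genes did, with a median log2 change of -0.23. The leading falls were RMA1H1-like genes. CmoCh19G010200 went from 9.34, 11.9 and 11.2 FPKM in SCK to 4.47, 5.39 and 4.43 in SR (log2 change -1.32 ± 0.19, adjusted p = 0.0134), and CmoCh20G002150 from 12.3, 22.5 and 18.5 to 6.87, 7.96 and 5.05 (-1.55 ± 0.25, adjusted p = 0.0160). In each the groups were well apart. Not all RMA genes fell: RMA1H1-like CmoCh03G012560, CmoCh11G019510 and CmoCh13G006670 were not called (log2 changes of 0.007, 0.15 and -0.21). Neither were RMA3-like CmoCh01G012580 and CmoCh09G008610 (-0.24 and -0.76). Another RMA1H1-like gene (CmoCh07G002410) and a VAMP711-like gene (CmoCh01G015640) also fell, and a VAMP722-like gene (CmoCh17G001160) rose from 0.475 ± 0.0319 to 1.58 ± 0.360 FPKM, these being named after their values were seen. Of 21 alternative fits, 12, 18 and 14 called these genes, in the order named. Neither limma nor edgeR without TMM factors called CmoCh07G002410, and CmoCh17G001160 had counts of only 22 to 31 in SCK. CmoCh17G001160 reached an FPKM of 1 in SR libraries only, so it entered the test through the group where it is higher. With no filter on low values edgeR called 0 rises and 4 falls of this list, and with a filter on counts 1 and 4.

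Of 15 14-3-3 genes, whose products bind and activate the plasma membrane proton pump, 2 rose and 0 fell, where 7.20% and 7.16% of all tested genes did. edgeR called 1 rise without the filter on low values, where 1469 of 29117 genes rose. DESeq2, limma and edgeR without TMM factors called 3 each, where 13.0%, 10.1% and 11.1% of all tested genes rose. The 2 rises were GF14 iota (CmoCh12G000800) from 15.3 ± 1.78 to 26.7 ± 3.01 FPKM (adjusted p = 0.0192) and protein D (CmoCh11G019660) from 27.3 ± 4.93 to 43.6 ± 5.89 FPKM (adjusted p = 0.0488). edgeR lost the latter call whichever library was left out, while DESeq2 kept it without SCK replicate 1, SCK replicate 2 or SR replicate 1. The pumps and potassium carriers that build the osmotic gradient for water gave 2 rises and 8 falls among 64 tested genes, with a median log2 change of 0.04, where 7.20% and 7.16% of all tested genes rose and fell. Of these calls, 1 rise and 7 falls were among 32 tested potassium channels and transporters (median log2 change -0.36). The other rise and fall were among 27 tested V-type proton ATPase genes (median 0.06). Potassium transporter 2 (CmoCh04G011380) rose from 10.2 ± 0.605 to 22.5 ± 5.12 FPKM (adjusted p = 0.0168), and potassium transporter 4-like (CmoCh14G007890) fell from 23.2 ± 0.846 to 16.5 ± 1.60 FPKM (adjusted p = 0.0181). Without TMM factors the pumps and carriers gave 4 rises and 3 falls, where 11.1% and 4.91% of all tested genes rose and fell. Without SR replicate 3 or SCK replicate 3 edgeR called 0 genes of any of these 3 lists. DESeq2 called 6 falls and 2 rises of the pumps and carriers without SR replicate 3, where 1976 and 1909 of all 23509 genes fell and rose. Without SCK replicate 3 it called 8 falls and 2 rises of them, where 1846 and 1791 of all genes fell and rose.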

How the data were processed

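Counts (whole numbers) and FPKM for each gene in each library stand side by side in a single table from the authors, per the file headers. HISAT and StringTie are named in the submitters' processing notes, without roles or versions. The genome build, the annotation and the handling of strand and shared reads are not stated there, and names and coordinates are those of the table. Values in 6 columns could be tied to no sample by name and were left out. FPKM was 0.0001 wherever the count was 0. The value 4 occurred 1350 times among the deposited counts, against 567 times for 3 and 516 for 5.

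Groups come from the titles. The aquaporin genes and all lists were chosen with earlier results of these data known. edgeR 4.0.16 (R 4.3.3; glmQLFit, glmQLFTest, TMM factors) was run on the deposited counts with group as the only term, over genes reaching an FPKM of 1 in 3 or more libraries. Each SE was obtained as log2 change divided by the square root of F. DESeq2 1.42.0 and limma 3.58.1 on log2(FPKM + 1) were alternatives, and the fits were tested on simulated data. Sums and shares of FPKM carry no test. The genes named are those called, the 3 most abundant of each subfamily, and the 2 leading calls of each companion list; others were added after their values were seen.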

Additional observations from a re-analysis of the deposited data

How the results depend on the processing

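The 9 called genes kept their sign in all 21 alternatives, but their calls depended on single libraries and on the tool. Leaving out 1 library, edgeR called 0 to 3 rises and 0 to 7 falls. Its calls over all 23509 genes moved too, from 0 and 0 without SCK replicate 3 and 253 and 289 without SR replicate 3 to 1830 and 1607 without SR replicate 1. It called 0 and 0 without SCK replicate 3, where 13 of the 36 aquaporin genes had an unadjusted p under 0.05 and DESeq2 called 4 rises and 7 falls. Without SCK replicate 1 or 2 there were 2 rises and 3 falls each. Over all genes the rises and falls were 737 and 839, or 732 and 935, and 917 and 1064 without SR replicate 2. Leaving out SR libraries gave 3 rises and 7 falls (replicate 1), 1 and 5 (replicate 2) or 1 and 3 (replicate 3). Without SR replicate 1, only 2 of the rises and 4 of the falls were among the 9 genes. Called anew were TIP4-1 as a rise and PIP2-2-like of chromosome 3, CmoCh04G011940 and CmoCh04G011960 as falls. Without SR replicate 2, 4 of the falls were among the 9 genes and TIP2-1-like was called anew. DESeq2 was added for the fits without 1 library after seeing the data. It called 4 to 5 rises and 7 to 10 falls, each time with all 9 genes among them. Over all 23509 genes it called 1791 to 3217 rises and 1846 to 3248 falls in these fits. With all libraries DESeq2 called 6 rises and 8 falls, and limma 4 and 4. With the replicate number as a block, edgeR called 0 rises and 0 falls, here and in the whole table, with 17 aquaporin genes at an unadjusted p under 0.05. Deviations from the group mean correlated at -0.15, -0.25 and 0.09 between same-numbered libraries and at -0.14 to 0.26 between the other pairs. With 3 libraries per group, each centred on its own mean, these values cannot decide whether the numbers pair libraries, which is not labelled. Among uncalled genes, signs were followed only for those within the 3 most abundant of each subfamily. Of these, the sign turned for TIP1-1 (CmoCh03G011980) without SCK replicate 1 (0.10 with edgeR and DESeq2, range over left-out libraries -0.76 to 0.10). It also turned for PIP2-1-like (CmoCh07G009730) without SR replicate 1 (-0.43 and -0.44, range -0.43 to 0.70). PIP2-7 (CmoCh11G017460) turned without SR replicate 2 (-0.28 with each, range -0.28 to 0.64). SIP1-1-like (CmoCh07G012210) turned without TMM factors (0.021) and by limma (0.033 and 0.034 with pseudocounts of 1 and 0.1). Leaving out 1 library, the difference in share of SR minus SCK ran from -12.2 to -8.38 percentage points for PIP1, -2.54 to 1.24 for PIP2, 3.24 to 11.6 for TIP, 2.31 to 3.86 for NIP and 0.57 to 0.96 for SIP. Counts divided by 4, added after seeing the data, gave 3 rises and 6 falls, with 1751 and 1724 over all tested genes.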
